A study of Mus musculus with 8 samples.

Results

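Chromatin accessibility in the dLGN, the dorsal lateral geniculate nucleus through which the thalamus passes retinal signals to the cortex, was compared between mice fed a chow containing PLX5562, the spelling used by the submitters, and mice fed a control chow made alongside it. The comparison used 4 of the 8 libraries of the series, 2 from PLX chow and 2 from control chow, chosen by their labels. All 4 came from C57Bl/6J mice that received their chow from postnatal day 20 until postnatal day 32, when the dLGN was microdissected. The stated purpose of the PLX chow was to deplete microglia. The other 4 libraries, from coronal brain sections of untreated Fn14 knockout mice and wild-type littermates at postnatal day 27, entered only 1 alternative fit. The assay was ATAC-seq on aliquots of 50000 nuclei, in which the Tn5 transposase inserts sequencing adapters into open DNA. Regions with a peak in all 4 libraries were ranked by their −log10 p within each library, and the ranks were compared between diets by gene. Nothing in the labels says whether a library is 1 animal or a pool, or whether replicates were separate animals, so the p-values measure only the spread between these libraries, which may be technical.

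CSF1R is the receptor tyrosine kinase through which CSF1 and IL-34 keep microglia alive, and blocking it removes most microglia from the brain while the drug is given. Microglia are the resident macrophages of the brain, and in the developing dLGN they are known for engulfing synapses of retinal ganglion cells. Microglia are a minority of the nuclei in this tissue, so a bulk ATAC-seq library mostly reports neurons, astrocytes and oligodendrocytes. In bulk nuclei, fewer nuclei of a cell type and less open chromatin per nucleus cannot be told apart, and nothing in the files measures the number of microglia.

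The promoter stretches of 6 genes on which the results turn follow, each as the 150 bases upstream of the RefSeq transcription start in build GRCm38.p6, 5′ to 3′ on the strand of the gene. P2ry12 marks microglia and Csf1 encodes a ligand of CSF1R. Ifit1 and Rsad2 are antiviral genes induced by interferon. Eif2s3y and Ddx3y are Y-linked genes that are broadly expressed in male cells. Capitals mark matches on either strand to the IRF repeat, in which 2 copies of GAAA bound by interferon regulatory factors are 2 bases apart, or to TGANTCA, the AP-1 site.
P2ry12 (chr3:59262986-59263135, minus strand): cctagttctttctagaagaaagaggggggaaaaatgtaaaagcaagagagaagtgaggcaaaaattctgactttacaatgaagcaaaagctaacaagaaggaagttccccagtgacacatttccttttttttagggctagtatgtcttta
Csf1 (chr3:107760470-107760619, minus strand): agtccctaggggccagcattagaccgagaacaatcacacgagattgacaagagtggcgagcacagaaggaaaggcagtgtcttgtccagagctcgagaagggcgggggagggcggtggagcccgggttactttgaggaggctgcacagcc
Ifit1 (chr19:34640739-34640888, plus strand): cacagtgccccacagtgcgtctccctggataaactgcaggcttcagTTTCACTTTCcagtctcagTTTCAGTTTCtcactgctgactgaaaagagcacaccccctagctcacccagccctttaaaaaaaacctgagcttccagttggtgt
Rsad2 (chr12:26456453-26456602, minus strand): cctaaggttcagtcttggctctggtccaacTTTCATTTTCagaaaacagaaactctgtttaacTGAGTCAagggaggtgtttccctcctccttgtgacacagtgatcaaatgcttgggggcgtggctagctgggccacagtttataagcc
Eif2s3y (chrY:1010445-1010594, plus strand): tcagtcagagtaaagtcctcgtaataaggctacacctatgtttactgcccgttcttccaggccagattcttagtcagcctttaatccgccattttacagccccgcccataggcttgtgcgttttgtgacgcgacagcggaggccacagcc
Ddx3y (chrY:1286614-1286763, minus strand): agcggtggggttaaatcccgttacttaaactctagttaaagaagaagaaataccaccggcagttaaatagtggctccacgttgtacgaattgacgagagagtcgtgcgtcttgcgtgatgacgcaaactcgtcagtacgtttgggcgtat
Of the 6, the IRF repeat occurred in Ifit1, at 2 places, and in Rsad2, at 1 place beside an AP-1 match. Over all 21263 promoter windows of 300 bases in the table, 3.35% held the IRF repeat and 6.99% the AP-1 site. A match describes the letters in the window and does not show that a factor was bound.

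The deposited lists held 248989 to 285771 peaks per library, which merged into 192208 to 215535 regions. Of 302025 regions found in any of the 4 libraries, 127326 (42.2%) had a peak in all 4. These shared regions had a median −log10 p of 18.7 and 17.7 in the PLX libraries and 23.1 and 18.7 in the control libraries. Ranks were used because such peak statistics grow with sequencing depth, and the read depth is unknown. The fold values of 51.9% to 55.3% of peaks were multiples, within 0.02 steps, of a fixed step, 0.125 and 0.130 in the PLX libraries and 0.101 and 0.102 in the control libraries, so this property of the lists moved with diet, and its part in the results was not tested. A region that lost its peak in a PLX library cannot enter the shared set. Regions with a peak in both control libraries only numbered 8721 (2.89% of 302025) and those in both PLX libraries only 4716 (1.56%). Pairs of libraries of different diets ranged from 4614, in PLX chow 1 and control chow 2 only, to 8294, in PLX chow 2 and control chow 1 only.

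PLX chow 1 stood apart from the other libraries. The 3 lowest of the 6 Spearman correlations of −log10 p over shared regions were those of PLX chow 1, from 0.872 with PLX chow 2 to 0.881 with control chow 2, while the other 3 lay between 0.888 and 0.892. Libraries of 1 diet were no more alike than libraries of different diets, with a mean correlation of 0.882 within and 0.883 between diets over 127326 regions. Several regions at or near Y-linked genes also ranked lower in both PLX libraries, and several X-linked regions ranked higher. The labels used here give no sex for the mice.

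No gene passed the genome-wide test between diets. Each shared region went to the nearest gene within 50 kb, which gave a value to 16842 of 21900 protein-coding genes. The value of a gene was the mean rank percentile of its regions, where 100 is the strongest. With limma and Benjamini-Hochberg adjustment, 0 genes had an adjusted p under 0.05, and the lowest adjusted p was 0.999. At an unadjusted p under 0.05 there were 604 genes (3.59%), of which 234 (1.39%) were higher and 370 (2.20%) lower in PLX chow. No alternative fit called a gene. The ranks of the 2 PLX libraries lay entirely above those of the 2 control libraries for 2236 genes (13.3%) and entirely below for 2811 genes (16.7%), and these shares are the background for the gene groups. With the strongest region per gene these counts were 1813 higher and 3226 lower. With all 8 libraries they were 2079 higher and 2651 lower of 15680 genes. Counts given below for those 2 alternatives have these as their background. The median difference over all genes was −0.30 percentile points, with a median standard error of 3.78 points, and the median 95% confidence interval reached 9.88 points to either side. An exact permutation test of 2 libraries against 2 cannot give a 2-sided p under 0.33, so the fit across all genes was the only test that could pass.

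**Figure D1:**
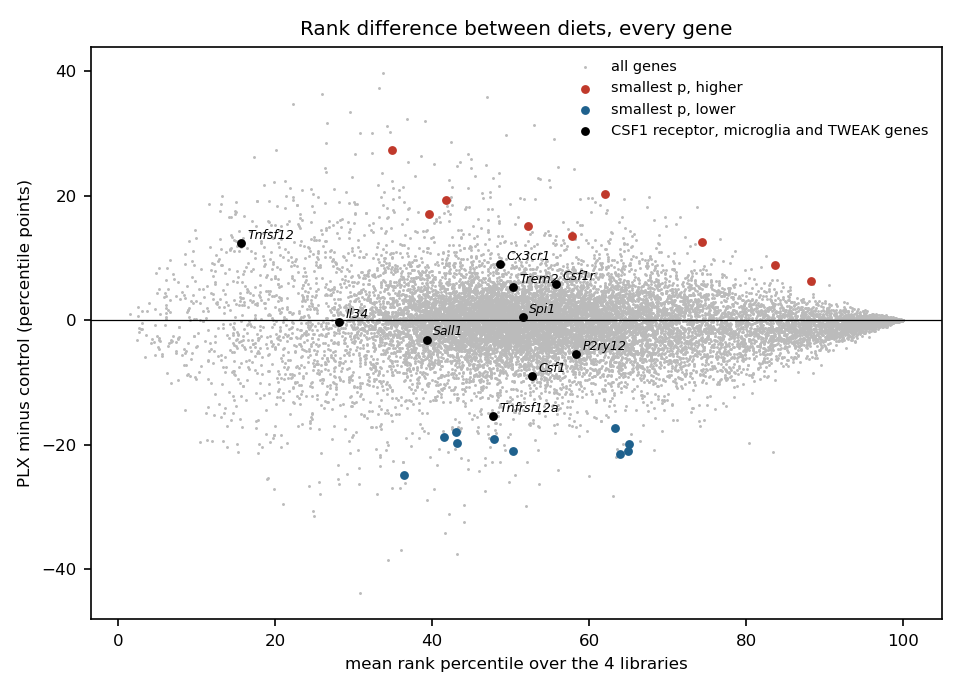
Difference in mean rank percentile between PLX chow and control chow (vertical axis, percentile points) against the mean over the 4 libraries (horizontal axis), with 1 point per gene for 16842 genes. Coloured points are genes with the smallest unadjusted p per direction among those with 2 or more regions and no overlap between diets, and black points are CSF1 receptor, microglial and TWEAK genes, which lie within the cloud of all genes.

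Genes of the CSF1 receptor pathway ranked lower in PLX chow more often than higher. Of 20 members, 18 had a shared region. The diets did not overlap for 9 lower members (50%, against 16.7% of all genes) and 1 higher member (5.56%, against 13.3%), and the list's median difference was −3.30 points against −0.30 for all genes. None of the 18 was called by limma, and 1, Csf1, had an unadjusted p under 0.05. The median kept its sign in every rank-percentile alternative, between −4.30 and −1.77. Without PLX chow 1 it was −2.59, and away from gene ends −1.77. With the strongest region per gene, 5 of the 18 were lower and 2 higher without overlap, where 3226 of all 16842 genes were lower and 1813 higher. With all 8 libraries, 6 of 17 members were lower and 0 higher.

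Among the ligands, Csf1 had mean ranks of 49.1 and 47.3 in the PLX libraries and 57.5 and 56.8 in the control libraries. These are means over 7 regions assigned to the gene, which spans 107741048 to 107760469 on chromosome 3. They include regions 8780, 28751 and 33268 bp outside the gene. Both PLX libraries were below both control libraries, with a difference of −8.96 ± 2.91 points (SE; limma unadjusted p = 0.029, adjusted 0.999). The difference did not sit at the promoter printed above. The region over that promoter, at 107759750 to 107760813, ranked 78.4 and 83.0 in PLX chow and 79.5 and 85.2 in control chow, and the strongest region of the gene, 28751 bp away, had a difference of 2.31 points in the opposite direction. Weaker regions carried it, among them 1 inside the gene at 107743623 to 107744130, with a −log10 p of 4.94 and 6.95 in PLX chow and 13.7 and 8.55 in control chow. Il34, the gene of the second CSF1R ligand, had 30.1 and 25.9 in PLX chow and 34.7 and 22.0 in control chow, so that the PLX values lay inside the range of the control values.

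The receptor gene Csf1r kept 1 shared region, inside the gene on chromosome 18 at 61127369 to 61128171. It had a −log10 p of 23.7 and 24.4 in PLX chow and 22.1 and 23.7 in control chow. The ranks were 57.5 and 60.01 against 48.5 and 57.3, a difference of 5.86 ± 4.16 points (SE; limma unadjusted p = 0.22 in the fit over genes and 0.53 in the fit over regions), and PLX chow 1 and control chow 2 were nearly level. Without PLX chow 2, over the regions shared by the other 3 libraries, the sign turned, to −7.43. Kit, a receptor tyrosine kinase of the same family, had 40.0 and 34.3 in PLX chow and 44.3 and 42.7 in control chow.

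Downstream of the receptor, the lower members without overlap included the phosphoinositide 3-kinase subunit gene Pik3cd (19.3 and 30.7 in PLX chow, 38.4 and 35.3 in control chow), the ubiquitin ligase gene Cbl (44.7 and 49.7 against 56.2 and 52.2) and the adaptor gene Grb2 (58.0 and 54.5 against 60.9 and 59.8). The 95% confidence interval of each of these 3 differences included 0. The pathway's adaptors and kinases are used by many cell types, so the list is not a list of microglial genes.

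Microglial genes had no common direction. Of 38 members, 30 had a shared region, over 200 regions in all, and the list's median difference was 0.06 points, with a range over the alternatives from −1.69, for the strongest region per gene, to 0.69, without PLX chow 1. The PLX libraries lay below the control libraries for 6 members (20.0%, against 16.7% of all genes) and above for 2 (6.67%, against 13.3%). None had an unadjusted p under 0.05. With the strongest region per gene, 9 members were lower and 1 higher without overlap, where 3226 of all 16842 genes were lower and 1813 higher. Over the regions of these genes, 21.0% were lower and 13% higher without overlap, against 16.2% and 15.7% of all shared regions. The median ranks of the list were 50.6 and 56.3 in PLX chow and 49.3 and 51.5 in control chow. No shared region was assigned to the members Gpr34, Tmem119, Tyrobp, Aif1, Itgam, Selplg, Ctss and Cd68, so they have no value here. A region goes to the nearest gene only, so such a member may still have a shared peak close by. The 30 with a value are those with an assigned region that had a peak in all 4 libraries, both PLX libraries included.

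P2ry12, the purinergic receptor gene of resting microglia, had 55.7 and 55.6 in PLX chow and 61.5 and 60.5 in control chow over 5 regions. Their centres lie inside the gene, which spans 59216271 to 59262985 on chromosome 3. Both PLX libraries were lower, by −5.36 ± 3.03 points (SE; limma unadjusted p = 0.14). The sign was negative in every alternative. Most of it came from 1 region inside the gene at 59254560 to 59255127, with a −log10 p of 12.0 and 11.8 in PLX chow and 33.0 and 21.0 in control chow. The region over the promoter printed above, at 59262701 to 59263060, had a −log10 p of 76.3 and 64.9 in PLX chow and 137 and 78.3 in control chow. Its ranks were 84.56 and 82.96 in PLX chow and 89.82 and 84.58 in control chow, so PLX chow 1 and control chow 2 were nearly level. P2ry12 lies within Med12l, so these regions cannot be credited to 1 of the genes by position alone.

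Cx3cr1, the fractalkine receptor gene of microglia, showed the opposite sign, with 48.0 and 58.4 in PLX chow and 43.0 and 45.3 in control chow. Its 4 regions include some 11110, 4247 and 5064 bp outside the gene, which spans 120048683 to 120068296 on chromosome 9. The difference was 9.05 ± 4.44 points (SE; limma unadjusted p = 0.10), and PLX chow 2 contributed most of it. P2ry6, a uridine nucleotide receptor gene linked to phagocytosis, had 23.6 and 29.9 in PLX chow and 32.1 and 42.2 in control chow, the largest negative difference of the means in the list. The other lower members without overlap were Golm1, Hpgds, Runx1 and Sall1, with differences of −7.08, −5.65, −5.06 and −3.10 points. Sall1, the transcription factor that sets microglial identity, had 39.0 and 36.6 against 42.3 and 39.5, and its sign turned without PLX chow 1 (1.48). Spi1, which encodes the myeloid factor PU.1, had 46.6 and 57.1 against 48.4 and 54.1. Trem2, a lipid-sensing receptor gene, had 53.8 and 52.3 against 56.0 and 39.4, over regions 9243 and 3816 bp outside the gene. The diets overlapped at both genes. Adgrg1, an adhesion receptor gene, differed by 0.09 points.

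**Figure D2:**
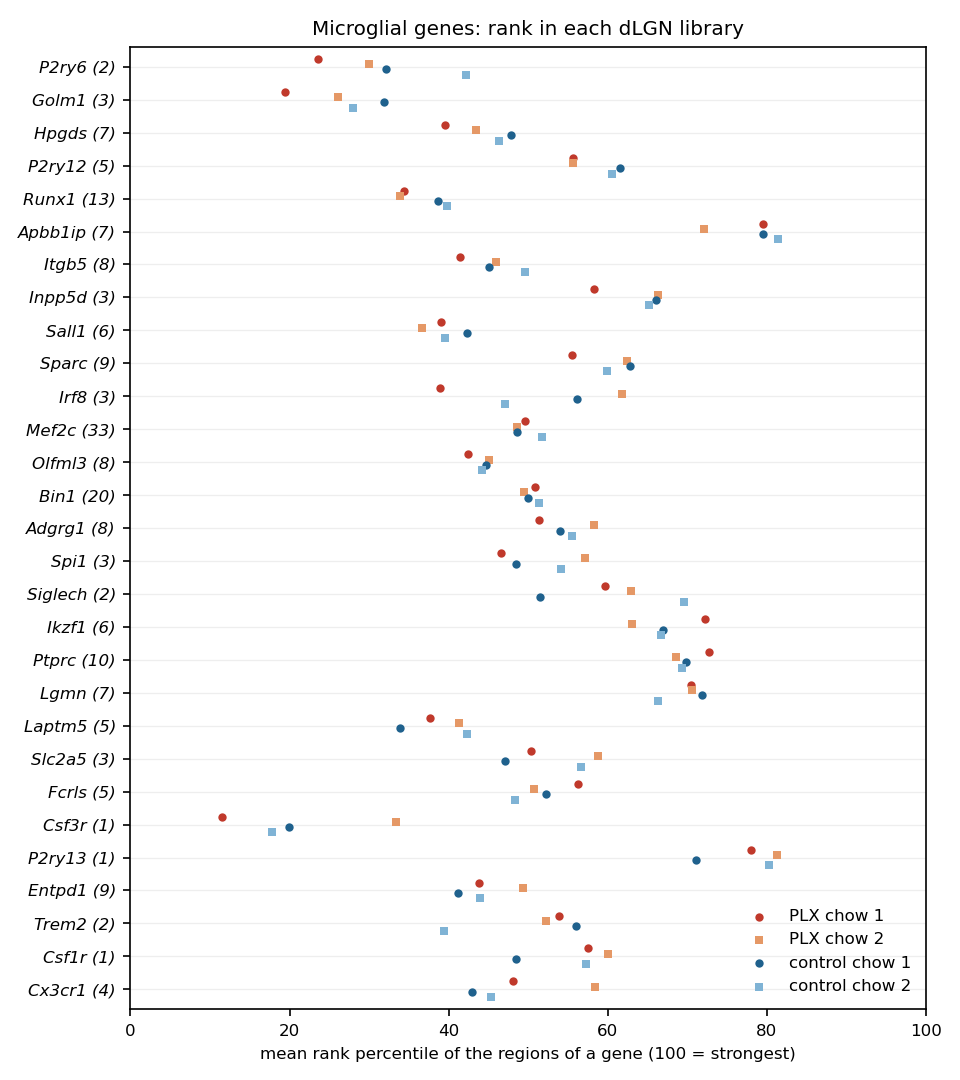
Mean rank percentile (horizontal axis, 100 = strongest) of microglial genes in each of the 4 libraries, ordered by the difference between diets, with the number of shared regions in parentheses. From P2ry6 at the top (−10.4 points) to Cx3cr1 at the bottom (9.05 points), most genes have PLX and control libraries that overlap.

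Genes of related macrophage functions gave small and mixed differences. Of 17 complement and phagocytosis genes, 12 had a value, with 2 higher and 2 lower without overlap and a median of −0.99 points, which was 1.06 with the strongest region per gene and 0.25 with all 8 libraries. The Fc receptor gene Fcgr1 had 75.3 and 70.6 in PLX chow and 56.2 and 69.0 in control chow, and Fcgr3 had 36.5 and 42.1 against 46.2 and 46.8. C1qa, a subunit of the complement initiator C1q, kept 1 weak region, which lies 14151 bp outside the gene. It had a −log10 p of 3.46 and 4.13 in PLX chow and 4.70 and 5.21 in control chow. Of 10 border macrophage genes, which mark macrophages of the meninges and vessels, only 4 had a value, with a median of 2.59 points. Mrc1 had 52.9 and 43.5 in PLX chow against 43.2 and 43.3, a difference made by PLX chow 1, and F13a1 differed by 1.98 points. Without control chow 1 the median of the border macrophage list was −0.10.

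Interferon response genes had 5 lower members without overlap among 14 with a value (35.7%, against 16.7% of all genes) and 2 higher. Their median difference was −1.98 points. Ifit1, whose promoter is printed above with 2 IRF repeats, had 33.5 and 47.1 in PLX chow and 54.6 and 59.3 in control chow at the region over that promoter (chromosome 19, 34640571 to 34641424). The difference was −16.7 ± 5.43 points (SE; limma unadjusted p = 0.030 in the fit over genes, adjusted 0.999). In the fit over regions, in which the spread is estimated from single regions, the same 4 ranks had an unadjusted p of 0.147 by limma. Rsad2, which encodes viperin, had 28.4 and 42.2 against 47.5 and 55.6 over 3 regions, a difference of −16.3 ± 5.97 points (limma unadjusted p = 0.044). At both genes all PLX values were below all control values and PLX chow 1 was the lowest library. Without PLX chow 1 the differences were −9.34 for Ifit1 and −9.04 for Rsad2, and the list's median was −0.16. With the strongest region per gene the median was −0.11, and with all 8 libraries 4 members were higher and 2 lower without overlap. The neighbours Ifit2 and Ifit3 differed by −8.27 and −5.00 points. The receptor gene Ifnar1 had the opposite sign, with 77.2 and 72.5 in PLX chow and 69.0 and 68.8 in control chow, while Ifnar2 had 27.3 and 34.6 against 38.4 and 37.9.

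TWEAK, a cytokine of the TNF family, and its receptor Fn14 are the subject of the series' other libraries. Tnfrsf12a, the Fn14 gene, had 1 shared region over its promoter (chromosome 17, 23677365 to 23677623), ranked 27.3 in PLX chow 1 and 53.0 in PLX chow 2, against 51.8 and 59.2 in control chow. PLX chow 1 alone was low. The difference of −15.4 points had an SE of 9.14 in the fit over genes and 11.9 in the fit over regions, and it was −2.34 without PLX chow 1. Tnfsf12, the TWEAK gene, had 15.0 and 28.8 in PLX chow and 9.59 and 9.52 in control chow over 2 weak regions (12.4 ± 7.48 points, SE; limma unadjusted p = 0.16). Of 25 TWEAK and NF-kB genes with a value, 5 were higher and 3 lower without overlap (20.0% and 12.0%), with a median of −0.31 points that was 0.59 without PLX chow 1, 0.10 without control chow 1 and 1.49 away from gene ends. The lower members were Tnfrsf1b, the gene of TNF receptor 2, with 50.9 and 35.7 against 52.2 and 60.5, and the NF-kB inhibitors Nfkbie and Tnfaip3, with differences of −8.81 and −7.28 points.

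Thalamic relay neurons are the principal neurons of the dLGN. All 28 genes of the thalamic relay neuron list had a shared region, as did 24 of 24 astrocyte, 21 of 22 inhibitory neuron and 13 of 15 cortical or hippocampal genes, so the presence of peaks does not check the labelled tissue. Of the 28, 2 were higher and 5 lower without overlap, with a median of −0.56 points. This median was 0.48 without PLX chow 1, 1.28 without control chow 2 and 0.27 with peaks of −log10 p of at least 5. Tcf7l2, whose product helps specify thalamic neurons, had 39.1 and 41.0 in PLX chow and 36.1 and 39.2 in control chow over 27 regions. Foxp2 had 56.5 and 55.1 against 53.7 and 55.5, and Lef1 had 35.2 and 34.4 against 33.0 and 35.8.

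Markers of neurons that are rare in or absent from the dLGN had lower members and no higher ones without overlap. Of 21 inhibitory neuron genes with a value, 6 were lower without overlap (28.6%) and 0 higher, with a median of −3.21 points, and 0 had an unadjusted p under 0.05. The neuropeptide gene Sst had 63.0 and 53.2 in PLX chow and 67.6 and 68.5 in control chow, and the developmental transcription factor gene Lhx1 had 3.29 and 17.8 against 38.7 and 23.2. The median of this list was −0.79 without PLX chow 1, with 7 higher and 6 lower under the looser rule that 1 PLX library leaves, and −0.13 with the strongest region per gene, with 3 higher and 7 lower. Of 13 cortical or hippocampal excitatory genes, 4 were lower without overlap (30.8%) and 0 higher. Their median was −0.76 points, and 0.45 without control chow 1. How much tissue beside the dLGN each dissection held was not tested.

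Glial and vascular lists were mixed in direction. Of 24 astrocyte genes, 6 were higher (25%) and 2 lower (8.33%) without overlap, yet the median was −0.68 points, and 1.66 without PLX chow 1 and 0.58 without control chow 2. Gja1, the connexin 43 gene, had 70.1 and 73.5 in PLX chow and 67.8 and 68.7 in control chow, and the neurotensin receptor gene Ntsr2 had 64.1 and 72.0 against 57.6 and 62.4. Glul, the glutamine synthetase gene, was lower, with 50.7 and 52.1 against 58.7 and 64.8 (−10.3 ± 3.59 points, SE; limma unadjusted p = 0.037), although its strongest region differed by 0.08. Of 23 oligodendrocyte genes, 1 was higher and 1 lower, and the median of −0.48 points was 1.23 without PLX chow 1. The lower one, Aspa, which encodes aspartoacylase, had 42.5 and 42.2 against 56.1 and 52.5 (−11.9 ± 3.03 points, SE; limma unadjusted p = 0.012, adjusted 0.999). The medians of the oligodendrocyte precursor, endothelial and pericyte or smooth muscle lists were −0.62, −0.76 and 1.97 points, and of the 18 endothelial genes 1, Mfsd2a, was lower without overlap and 0 were higher. All 3 medians turned sign when a library was left out. The precursor median was 0.59 without PLX chow 1 and 1.45 without control chow 1. The endothelial median was 4.54 without PLX chow 1 and 1.14 without control chow 2, and the pericyte median was −1.39 without PLX chow 2 and −1.03 without control chow 2.

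Activity-regulated genes had 8 lower members without overlap of 36 (22.2%) and 1 higher (2.78%), with a median of −0.98 points. The median was −0.31 without PLX chow 1, and with all 8 libraries it was 0.05, with 8 members higher and 6 lower. Nptx2, which encodes a secreted synaptic pentraxin, had 55.1 and 57.7 in PLX chow and 63.9 and 70.8 in control chow (−10.95 ± 3.92 points, SE; limma unadjusted p = 0.041), and the phosphatase gene Dusp1 had 51.8 and 48.2 against 57.3 and 56.4. Synaptic genes had 7 higher (21.2%) and 2 lower (6.06%) members of 33, and a median of −0.49 points. These counts were 5 and 7 with the strongest region per gene and 5 and 5 with all 8 libraries, and the median was 1.47 without control chow 2 and 0.53 without PLX chow 1. Nrxn3, a presynaptic adhesion gene with 96 regions, had 51.3 and 50.4 against 47.3 and 47.5. Clock genes were split, with 3 higher and 4 lower of 16, and their median of −1.36 points was 1.85 without PLX chow 1. The repressor gene Nr1d1 had 80.4 and 81.8 against 85.3 and 86.2 (−4.70 ± 1.69 points, SE; limma unadjusted p = 0.041). Of 60 cytosolic ribosomal protein genes, 47 had a negative difference, 13 were lower without overlap (21.7%) and 2 higher (3.33%). The median of this list was −1.36 points with all libraries and 0.43 without PLX chow 1.

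**Figure D3:**
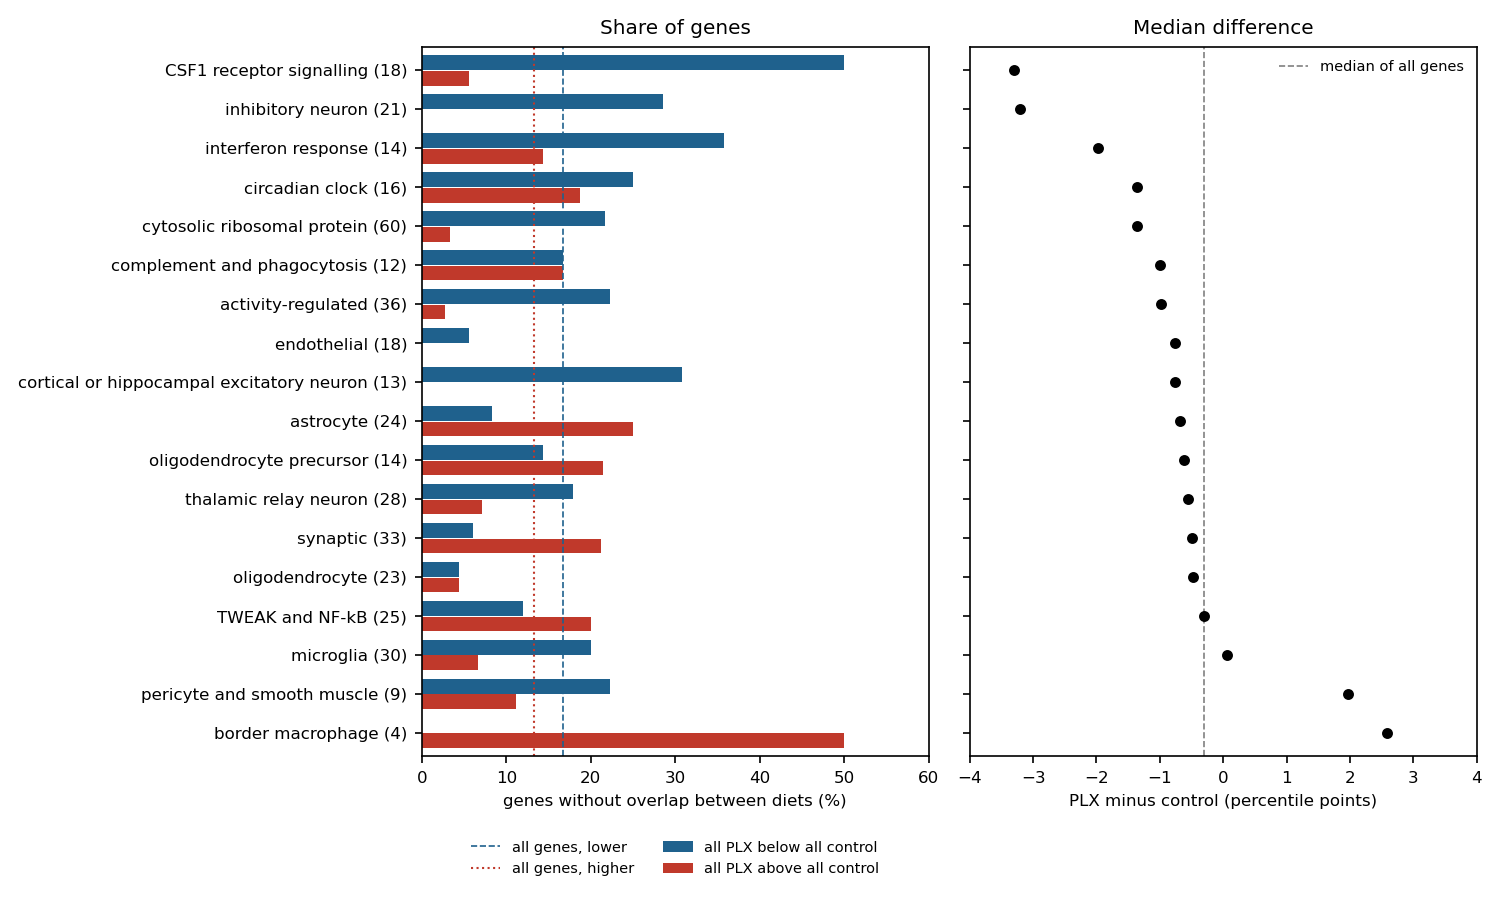
Left, share of the genes of each list (horizontal axis, %) whose PLX libraries all ranked below (blue) or above (red) both control libraries, with the shares over all genes as vertical lines (16.7% and 13.3%). Right, median difference of each list in percentile points, from −3.30 for CSF1 receptor signalling to 2.59 for border macrophage genes (4 genes), with the median of all genes as a dashed line.

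The genes with the smallest p were not those of the lists. Among genes with 2 or more regions and no overlap, the smallest p in the lower direction belonged to Rfc2, a DNA replication clamp loader subunit gene, with 55.5 and 53.3 in PLX chow and 75.3 and 75.7 in control chow (−21.1 ± 3.25 points, SE; limma unadjusted p = 0.0015, adjusted 0.999). Vgll2, a transcription cofactor gene, had 37.4 and 39.2 against 58.9 and 55.9. Adam8, a metalloprotease gene expressed in myeloid cells, had 25.9 and 22.3 against 46.0 and 51.8. The 10 genes with the smallest p in this direction also held Inpp5j, Cys1, Ccnb1ip1, Olfr1396, Adgrg7, Smim8 and Dennd6a, with differences between −21.4 and −17.2 points. In the higher direction Gm5622 had 48.0 and 49.1 in PLX chow and 19.1 and 23.3 in control chow (27.4 ± 4.30 points, SE; limma unadjusted p = 0.0017). Vnn1, the gene of the pantetheinase vanin 1, had 59.2 and 60.4 against 45.4 and 44.0, and Tuba8, an alpha-tubulin gene, had 91.8 and 91.1 against 83.9 and 86.2. Other genes among the smallest p-values in this direction were Dnaaf5, Spata24, Tent5a, Commd6 and the X-linked genes Radx and Bgn, the last with 52.1 and 50.8 against 36.2 and 28.1. Each of the genes named here rested on 2 to 4 regions, and their p-values were chosen as the smallest of 16842.

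The surplus of lower genes sat at promoters. Of 10687 regions overlapping a promoter window, 22.3% were lower and 8.14% higher in PLX chow without overlap, whereas regions inside genes and away from promoters had 15.5% lower and 16.4% higher. Promoter regions had a median rank of 90.3 in PLX chow 1 and of 92.3, 92.3 and 92.1 in PLX chow 2 and the control libraries, so that PLX chow 1 was the low one. Regions over 50 kb from any gene had 48.2 in PLX chow 1 and 44.9, 46.7 and 45.3 in the other libraries. Within 1 kb of a gene end the median difference was −0.31 points, and without PLX chow 1 it was 0.04. The counts of lower genes in the CSF1 receptor, interferon, inhibitory neuron, activity-regulated and ribosomal lists include these promoter regions. Their part in those counts was tested only by leaving out regions within 1 kb of gene ends. The medians were then −1.77, −1.62, −2.53, −1.27 and −0.90, against −0.15 for all genes. Without overlap, 7 of 17 CSF1 receptor genes were then lower and 1 higher, and 3 of 10 interferon genes lower and 2 higher. For inhibitory neuron genes 4 of 20 were lower and 0 higher, and for activity-regulated genes 8 of 34 and 0. Of all 13339 genes in that setting, 2093 were lower and 1988 higher.

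**Figure D4:**
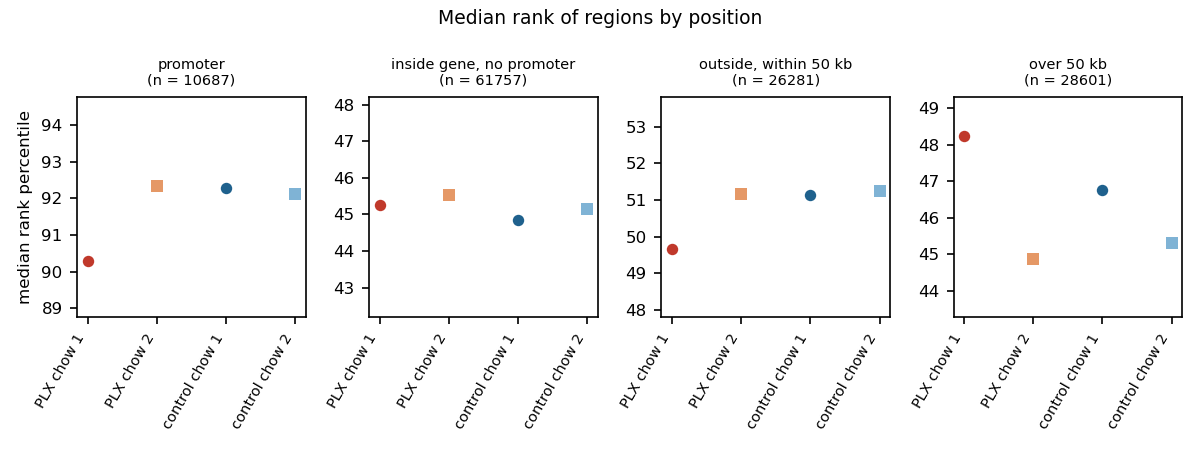
Median rank percentile (vertical axis, with the same span of 6 points in each panel but another start) of shared regions in each library, by position. At promoters PLX chow 1 sits at 90.3 and the other libraries at 92.1 to 92.3, and over 50 kb from genes it is the highest library.

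Of the 10 single regions with the smallest p, 5 per direction, 4 were on the sex chromosomes and 6 on autosomes. Of 127326 regions, 0 had an adjusted p under 0.05 by limma, and 4345 (3.41%) had an unadjusted p under 0.05, of which 2193 (1.72%) were higher and 2152 (1.69%) lower. The shares without overlap were 15.7% higher and 16.2% lower. The smallest p in the lower direction was that of the promoter region of Eif2s3y, a translation initiation factor gene (chromosome Y, 1010010 to 1010873). It had a −log10 p of 43.0 and 32.4 in PLX chow and 135 and 124 in control chow, and a fold of 8.65 and 7.41 against 16.1 and 15.2. The promoter region of Ddx3y, an RNA helicase gene (chromosome Y, 1286240 to 1286790), had a −log10 p of 57.6 and 30.5 against 222 and 170 and a rank difference of −21.2 ± 3.88 points (SE; limma unadjusted p = 0.00025, adjusted 1). Uty, a histone demethylase gene, had folds of 11.5 and 12.99 against 21.3 and 16.2. Regions assigned to Kdm5d and Uba1y, which the naming rule did not select, were added with their values known. All PLX ranks at them were also below the control ranks. Both lie outside their gene, at 872860 to 873220 for Kdm5d (897566 to 943813) and 809053 to 809650 for Uba1y (818612 to 843684). The Kdm5d region had a −log10 p of 3.91 and 6.19 in PLX chow and 44.9 and 12.5 in control chow. The mean PLX fold was 0.423 to 0.696 of the mean control fold at these 5 Y-linked regions. They are the 5 lower ones without overlap (45.5%) among 11 shared regions on chromosome Y, of which 1 (9.09%) was higher without overlap.

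The autosomal regions of this set went both ways. The largest negative difference of all shared regions, −54.2 ± 11.2 points (SE; limma unadjusted p = 0.00063, adjusted 1), was at a region over 50 kb from any protein-coding gene (chromosome 5, 16469745 to 16470743). It had a −log10 p of 5.89 and 9.80 in PLX chow and 65.1 and 39.5 in control chow. Among the higher ones, the region nearest to Spred1, an inhibitor gene of the Ras pathway, had 139 and 107 in PLX chow and 83.4 and 70.2 in control chow. A region inside Pex5l, a gene expressed in neurons, had 173 and 113 against 92.1 and 81.1.

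On chromosome X, the smallest p in the higher direction belonged to a region inside Firre, a long noncoding RNA gene whose RNA is associated with the inactive X chromosome (50602443 to 50603249). It had a −log10 p of 39.1 and 41.2 in PLX chow and 6.12 and 4.75 in control chow, with ranks of 71.0 and 73.8 against 9.33 and 7.34 (64.1 ± 11.5 points, SE; limma unadjusted p = 0.00020, adjusted 1). A second Firre region had 55.7 and 33.3 against 14.4 and 10.0, while the strongest Firre region had 387 and 370.5 against 462 and 396 and a rank difference of 0.26. The region at Xist, the RNA gene of X inactivation, ranked 68.4 and 75.7 in PLX chow and 62.4 and 53.6 in control chow. Over 2353 regions on chromosome X, 20.9% were higher and 12.2% lower without overlap, with a median of 0.58 points, and over 11 on chromosome Y the median was −10.5 points. The sex of the mice behind each library and its part in these values were not tested. With autosomes alone, 0 genes and 0 regions had an adjusted p under 0.05 by limma and 569 genes had an unadjusted p under 0.05.

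**Figure D5:**
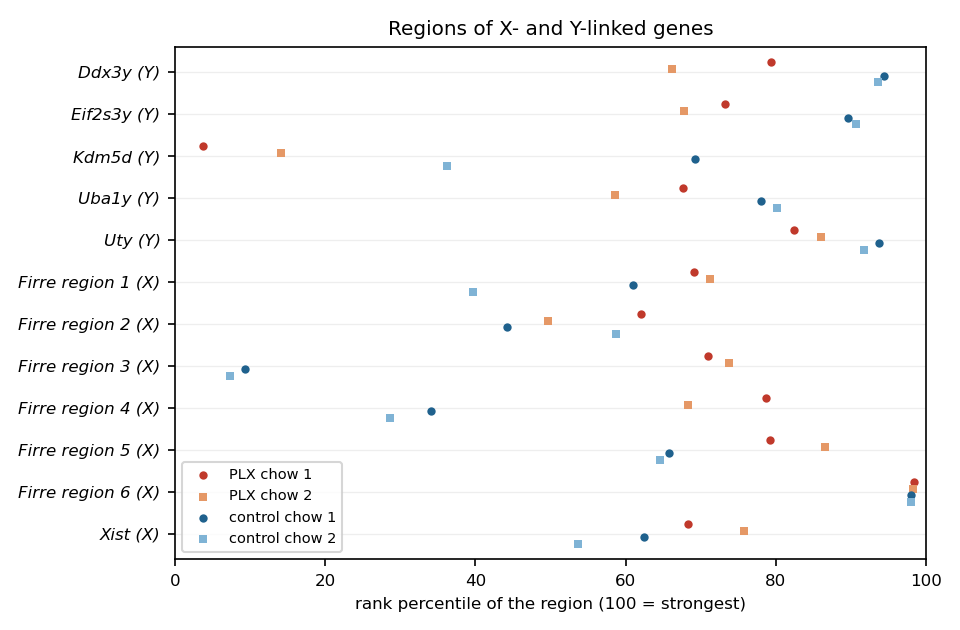
Rank percentile (horizontal axis, 100 = strongest) of regions at or nearest to 5 Y-linked genes, and at Xist and Firre, in each library. Those named Kdm5d and Uba1y lie outside these genes. Both PLX libraries lie below both control libraries at all 5 Y-linked regions, which are 5 of 11 on chromosome Y, and above them at Firre region 3 (ranks of 71.0 and 73.8 against 9.33 and 7.34).

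Regions with a wide gap were few and went both ways. A gap of over 25 percentile points between the diets' nearest libraries was found at 230 regions higher in PLX chow (0.181%) and 217 lower (0.170%), of which 12 and 0 were on chromosome X. Only 6 of the wide-gap regions, all lower, overlapped a promoter. Of all shared regions, 8.39% overlapped a promoter and 1.85% were on chromosome X. Promoter regions had median ranks of 90.3 to 92.3 in the 4 libraries, which leaves most of them no room for a rise of 25 points. The widest lower gaps included regions inside Mon2 (a −log10 p of 4.37 and 3.22 in PLX chow, 29.4 and 19.3 in control chow), App, the amyloid precursor gene (6.34 and 4.08 against 24.1 and 21.7), and Mef2c, a neuronal and microglial transcription factor gene (8.04 and 9.06 against 33.1 and 28.8). The widest higher gaps included regions inside Ralyl (17.1 and 19.3 against 3.04 and 3.88) and Dnaaf5 (16.9 and 23.4 against 2.33 and 4.75). These were chosen for their gap, so the values are a description. The whole of Mef2c, with 33 regions, differed by −1.05 points.

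Sequence features of promoters separated the diets little. The share of promoter regions lower without overlap was 21.1% in the third of promoters with the lowest GC content (median 53.0%) and 25.6% in the third with the highest (median 70.7%). Promoter regions holding GAGGAAGT, the motif of PU.1, the lineage factor of microglia, numbered 284 and had 23.9% lower, 6.69% higher and a median of −0.23 points, against 22.3%, 8.14% and −0.31 for all promoter regions. Those holding the IRF repeat numbered 302, with 23.8% lower, 4.97% higher and a median of −0.45 points. For AP-1 the values were 23.9%, 8.83% and −0.32 over 532 regions. GAGGAAGT occurred in 3.13% of all promoter windows, on either strand. Of the other motifs searched, that of TCF/LEF factors, CTTTGAT, was in 3.22% of windows and its 275 promoter regions had 18.2% lower and 9.45% higher. The regions with the motifs of MEF2, CTCF and EGR factors had 22.9%, 21.1% and 22.0% lower, and the NFI motif was in 3 regions only.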

How the data were processed

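ATAC-seq libraries of dLGN nuclei were compared, 2 from PLX chow and 2 from control chow. Per the deposited pipeline instructions, whose example is an Fn14 knockout library, the ENCODE pipeline for ATAC-seq was run on paired-end data and mm10, with multimapping 0 and 0.01 as the limit on the p of a peak. A peak list was deposited for each library, and its name records that reads were trimmed, that duplicate and mitochondrial reads were dropped, a step for Tn5, a filter and a limit of 300000 peaks. The submitters' processing notes name deepTools 3.5.0, with no step given; neither the aligner nor the peak caller is given in the sources used here. Each deposited peak carries the authors' score, fold enrichment (a ratio), −log10 p-value and q-value, and summit offset. These values describe and rank peaks within a list and are not counts, so the depth per library is unknown and no counting interval is given.

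Within each library, peaks that overlapped were merged, keeping the highest −log10 p and fold. Merged regions overlapping by 1 bp or more in all 4 libraries were ranked by −log10 p within each library as percentiles. Each region was assigned to the nearest protein-coding gene within 50 kb of its centre, from a RefSeq gene table of assembly GRCm38.p6 (the mm10 build) that carries no strand. Gene means and regions were tested with limma 3.58.1 in R 4.3.3 (lmFit, eBayes with trend and robust) and Benjamini-Hochberg adjustment over all genes or regions, at 0.05. Tables were made with Python 3.11.15, and the scripts were tested on simulated data. Promoter sequences come from RefSeq (GRCm38.p6).

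The members, the 18 gene lists (426 of 429 genes matched by symbol) and the tests were chosen with earlier results of these data known, so lists were described and not tested. Named genes were 11 CSF1 receptor, microglial and TWEAK genes, the 10 genes with the smallest p per direction among genes with 2 or more regions and no overlap, the 2 members of each list with the largest difference without overlap, and the 5 regions with the smallest p per direction. A few genes that this rule selects are not reported here. Other named list members, Firre regions and wide-gap regions were chosen after their values were seen. Alternatives ranked fold instead of −log10 p, used normal scores, stricter peaks, other overlaps and gene assignments, all 8 libraries, the replicate number as a block, or left out each library. Restriction to autosomes, restriction to regions over 1 kb from gene ends, and leaving out libraries for the chromosome values were added after seeing the data. Replicate numbers name libraries only: over shared regions the deviations of same-numbered libraries had a correlation of −0.02.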

Additional observations from a re-analysis of the deposited data

How the results depend on the processing

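No setting called a gene at an adjusted p under 0.05 by limma. Regions were called only with normal scores (5) and without PLX chow 1 (1, at Ddx3y), where its adjusted p was 0.018, and Ddx3y passed with normal scores at −0.94 (adjusted 0.0069) and without PLX chow 1 at −25.8. The replicate number as a block gave 0 called genes and regions and 564 genes at an unadjusted p under 0.05; the libraries share only a number, and no pairing was used. Leaving out 1 library in turn gave 355 to 1820 such genes and 2263 to 10716 regions (without PLX chow 2, 366 genes were higher and 1454 lower), 5067 to 7682 lower and 4533 to 6373 higher genes without overlap, 41775 to 48909 lower and 41196 to 46753 higher regions, and 0 to 1 called regions; with 1 library on a side, non-overlap is a looser rule, and the lone library is assumed to vary like the others. With 3 or more regions per gene, fewer genes were tested and 345 had an unadjusted p under 0.05, with 1462 lower and 1410 higher. With all 8 libraries, 71365 shared regions gave 1738, 11327 lower and 11233 higher. Of the named genes, 21 turned sign in at least 1 setting, and the cause was not tested. With the strongest region per gene, these were Csf1 (2.31), Spi1 (−9.37), Tent5a (−0.34), Adgrg7 (0.0697), Smim8 (0.22), F13a1 (−1.27), Glul (0.0754), Ntsr2 (−1.76), Ptprz1 (−2.43), Syn2 (−1.25), Per1 (1.44) and Rps19 (0.59). With peaks of −log10 p of at least 5 they were Spi1 (−1.26), Smim8 (0.27), Glul (0.0928) and Nlgn3 (0.33), and with 50% overlap Il34 (0.69) and Glul (0.0786). With all 8 libraries they were Spi1 (−4.54), Sall1 (0.29), Smim8 (0.40) and Ptprz1 (−0.56). Inside genes they were Adgrg7 (0.0697), Pdgfra (2.62) and Mfsd2a (0.75), within 10 kb Pdgfra (3.73), and with normal scores Il34 (0.23). Leaving out each library in turn gave ranges that crossed 0 for Csf1r (−7.43, without PLX chow 2, to 9.67), Il34 (−6.91 to 6.96, without control chow 1; 2.74 without PLX chow 2), Spi1 (−3.72, without PLX chow 2, to 5.78; −1.92 without control chow 1), Sall1 (−4.74 to 1.48, without PLX chow 1), Trem2 (−2.83, without control chow 2, to 13.8), Mrc1 (−0.47, without PLX chow 1, to 5.95), Pdgfra (−6.10 to 1.20, without control chow 2), Notch3 (−5.38 to 0.34, without PLX chow 1) and Nlgn3 (−11.9 to 0.53, without PLX chow 1). Read depth is unknown, and regions with no peak in 1 library have no rank.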

Other observations

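Genes of cholesterol synthesis and uptake were looked at after 2 of them appeared among the regions that passed when normal scores replaced percentile ranks, so the list was chosen with the values in view and its counts carry no test. That fit spreads the strongest regions apart and called 5 regions. Those at Hmgcs1 and Msmo1 were higher in PLX chow, and those at Arl13b, Tasp1 and Ddx3y lower. Hmgcs1 encodes a synthase at the start of the mevalonate pathway and Msmo1 a demethylating enzyme of the sterol steps. The region at Msmo1 (chromosome 8, 64733177 to 64733999) was number 13 and 17 of 127326 by −log10 p in the PLX libraries and 36 and 33 in the control libraries. The region at Hmgcs1 (chromosome 13, 119689917 to 119690773) was number 22 and 28 in PLX chow and 45 and 81 in control chow. By −log10 p itself the diets overlapped at both, with 1495 and 1195 in PLX chow against 1540 and 1310 in control chow at Msmo1. At Hmgcs1 the values were 1456 and 1134 against 1508 and 1190. At Arl13b, a cilia GTPase gene, the order was 40 and 57 against 24 and 14, and at Tasp1, a protease gene, 31 and 30 against 12 and 18.

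By gene, the counts over the pathway were near those of all genes. Of 22 genes, 21 had a shared region. By the mean over regions, 3 were higher (14.3%) and 4 lower (19.0%) without overlap, beside 13.3% and 16.7% of all genes. By the strongest region, 15 were lower in PLX chow and 6 higher, with 5 lower and 2 higher without overlap, where 3226 of all 16842 genes were lower and 1813 higher without overlap. Sqle, the squalene epoxidase gene, gave −log10 p values of 445 and 432 in PLX chow and of 693 and 591 in control chow, and its strongest region had a rank difference of −0.39 points.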
